A study of Mus musculus with 12 samples.

Results

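The protein-coding genes of voltage-gated sodium, calcium and potassium channels, pacemaker channels and the other potassium channels were measured in heart muscle of 10 mice. Genes were taken by symbol (Kcn, Scn followed by a digit, Cacn, Hcn followed by a digit), which gave 138 genes, all of them present among the 56647 gene rows with a value in every library. Antisense and opposite-strand symbols, 5 in number, were left out. All mice were wild type. Sham vehicle mice (n = 3, labelled both sham and vehicle) had no ligation, MI mice (n = 3) had a left coronary ligation, which causes myocardial infarction, and NECA-treated MI mice (n = 4) had NECA delivered locally into the infarcted muscle. NECA, 5′-(N-ethylcarboxamido)adenosine, is an agonist of adenosine receptors. The labels give no age, sex, strain, dose or time after ligation, and they name no vehicle for the MI mice, so an effect of NECA and one of its delivery cannot be told apart.

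In heart muscle the sodium channel carries the upstroke of the action potential, the L-type calcium channel holds its plateau and triggers contraction, and several potassium channels end it. Inward rectifiers and two-pore-domain channels set the resting potential, and pacemaker channels carry the depolarising current of cells that beat on their own. Accessory subunits bind the pore-forming proteins and change their gating or their transport to the membrane. Loss of potassium current in injured ventricle, called electrical remodelling, is known to lengthen the action potential.

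Libraries were made by a 3′ end protocol, and each mouse entered the comparisons with 1 library of 0.96 to 1.33 M counts (M, 1e6 counts). MI mice 2 and 3 each had another, deeper library, named 1st in the labels, of 30.7 and 27.1 M counts. These 2 exist for MI mice only and are used below for detection and as an alternative. Levels are in CPM (counts per 1e6 library counts after TMM scaling), and on this scale 10 CPM stood for 9.12 to 13.8 counts in a library. All 8 markers of ventricular muscle were present in every library, with a summed level of 49030 to 71020 CPM in sham vehicle, 38810 to 58180 CPM in MI and 52510 to 62600 CPM in NECA-treated mice. Sham vehicle mouse 3 stood apart through atrial transcripts, with 722 CPM of the atrial light chain gene Myl7 against at most 0.879 CPM in any other mouse. MI mouse 3 stood apart through a summed level of 9651 CPM over 6 fibroblast markers, against 1231 and 1897 CPM in the other MI mice, 568 to 1489 CPM in sham vehicle and 1347 to 4212 CPM in NECA-treated mice. NECA-treated mouse 4 and, at a lower level, MI mouse 2 held transcripts of skeletal muscle, with 94.04 and 17.5 CPM of the myosin gene Myh1 against at most 0.853 CPM in any other mouse. In bulk tissue, fewer cells of a type and less RNA per cell cannot be told apart.

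Every channel class held a gene with a count in the 10 libraries, but few genes reached a level that could be tested. A count was found for 104 of the 138 genes in at least 1 of the 10 libraries and for 43 in all 10. The filter on low counts kept 33 genes for testing, and these held 95.6% of the channel counts. Of the 34 genes with no count in the 10 libraries, 20 had at least 1 count in a 1st library of an MI mouse and 14 had none in any library. In the deep libraries none of these 20 had more than 7 counts in either mouse.

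**Figure D1:**
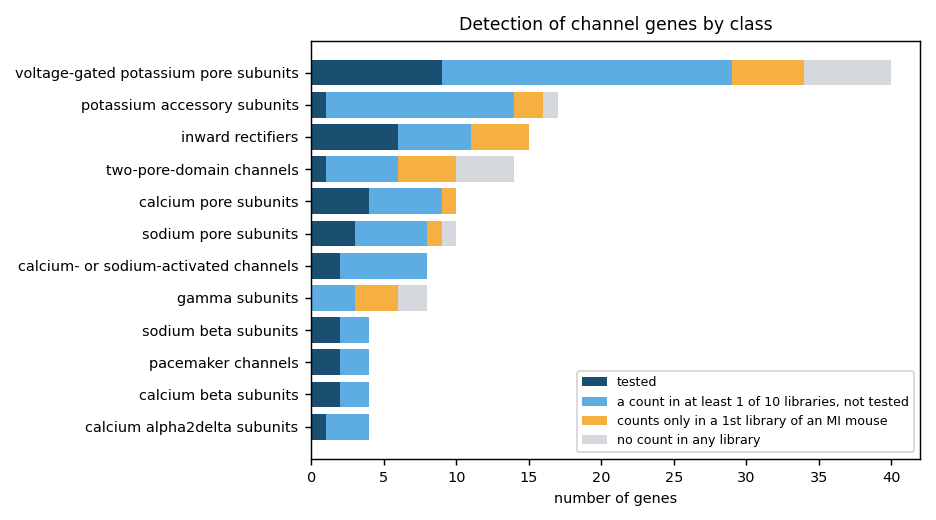
Number of channel genes (x axis) in each class (y axis), split by the detection reached. Of 40 voltage-gated potassium pore genes 9 were tested and 6 had no count in any library, while all 15 inward rectifier genes had a count in some library and 6 were tested.

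Classes differed in how many of their members were detected. All 4 pacemaker channel genes, all 4 sodium beta subunit genes, all 4 calcium beta subunit genes and all 8 genes of calcium- or sodium-activated potassium channels had a count in the 10 libraries. The 8 gamma subunit genes (Cacng), most of them known as partners of glutamate receptors in brain, had 0 members tested and 5 without a count in the 10 libraries. Of 14 two-pore-domain genes, 1 was tested and 8 had no count there. Several genes with a well known role in heart were below the filter. Kcne1, the accessory subunit of the slow delayed rectifier, had 31 counts over the 10 libraries, and Kcna4, a transient outward channel, had 17. Kcnmb1, a smooth muscle subunit of the large calcium-activated channel, had 16 counts, and Kcnma1, the pore of that channel, had 2, both in MI mouse 3.

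No channel gene passed the test between any pair of groups. The threshold was an adjusted p under 0.05 in edgeR's quasi-likelihood test, adjusted over all 9505 genes tested. In MI against sham vehicle mice 0 of 33 channel genes were called, where 4 genes (0.0421%) of all genes passed as higher and 3 (0.0316%) as lower. The smallest adjusted p of a channel gene was 0.114, for Kcnk3. In NECA-treated MI against MI mice 0 channel genes passed in either direction (smallest adjusted p = 0.793), as did 0 (0%) of all genes. In NECA-treated MI against sham vehicle mice 0 channel genes passed (smallest adjusted p = 0.757), where 0 (0%) of all genes passed as higher and 1 (0.0105%) as lower. DESeq2 and limma also called 0 channel genes in each of the 3 comparisons. At an unadjusted p under 0.05 in either direction they had 10, 3 and 5 (DESeq2) and 9, 5 and 4 (limma). The share of all tested genes at that level is not given for these methods. Values below therefore describe these mice, and no gene is said to rise or fall.

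At the looser level of an unadjusted p under 0.05, channel genes lay mostly on the lower side after ligation. In MI against sham vehicle mice 11 of 33 (33.3%) were lower at this level, beside 5.8% of all tested genes, and 1 (3.03%) was higher, beside 6.18%. Among the 11 were Kcnk3, Kcnh2, Scn4a, Kcnj12, Hcn4, Hcn2, Kcnj5, Kcnj3 and Kcnd2, and the higher one was Cacnb3. Log2 fold changes were below 0 in 23 of 33 (69.7%, beside 50.9% of all tested genes) and above 0 in 10 (30.3%, beside 49.1%), with a median of -0.30 beside -0.0077 over all tested genes. The 3 MI mice lay wholly below the 3 sham vehicle mice in 8 genes (24.2%, beside 7.13%) and wholly above them in 0 (beside 7.13%). Without MI mouse 3 the median was -0.10, with 22 of 33 genes below 0 and 9 at an unadjusted p under 0.05 in either direction. With all 104 channel genes of at least 1 count kept, many of them with few counts, 53 were below 0 and 45 above (median -0.12). Shares of all tested genes are not given for either of these fits.

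Between NECA-treated MI and MI mice the balance lay on the higher side. Log2 fold changes were above 0 in 26 of 33 (78.8%, beside 48.6% of all tested genes) and below 0 in 7 (21.2%, beside 51.4%), with a median of 0.22 beside -0.0109. In this comparison 6 genes (18.2%) were higher at an unadjusted p under 0.05, beside 3% of all tested genes, and 0 were lower, beside 3.07%. Among the 6 were Scn4a, Kcnk3, Kcnj12 and Kcnn1. The 4 NECA-treated mice lay wholly above the 3 MI mice in 6 genes (18.2%, beside 3.88%) and wholly below in 0 (beside 3.61%). These counts lean on MI mouse 3. Without it the median was 0.09, 20 genes were above 0 and 13 below, and 2 were at an unadjusted p under 0.05 in either direction. With all 104 channel genes of at least 1 count kept, 57 were above 0 and 40 below (median 0.12). For these fits too, shares of all tested genes are not given.

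Against sham vehicle mice, the NECA-treated mice had a median of -0.15, beside -0.0123 over all tested genes, with 20 of 33 genes (60.6%) below 0, beside 52.1%, and 13 (39.4%) above 0, beside 47.9%. At an unadjusted p under 0.05, 4 genes (12.1%) were lower, beside 2.96%, namely Hcn4, Kcnh2, Kcnk3 and Kcnj3, and Cacnb3 was the 1 higher (3.03%, beside 3.06%). The 4 NECA-treated mice lay wholly below the sham vehicle mice in 2 of 33 genes (6.06%, beside 4.29%) and wholly above in 1 (3.03%, beside 4.27%). Without sham vehicle mouse 2 the median was 0.05. The 3 comparisons share their mice, so they are not independent of each other.

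**Figure D2:**
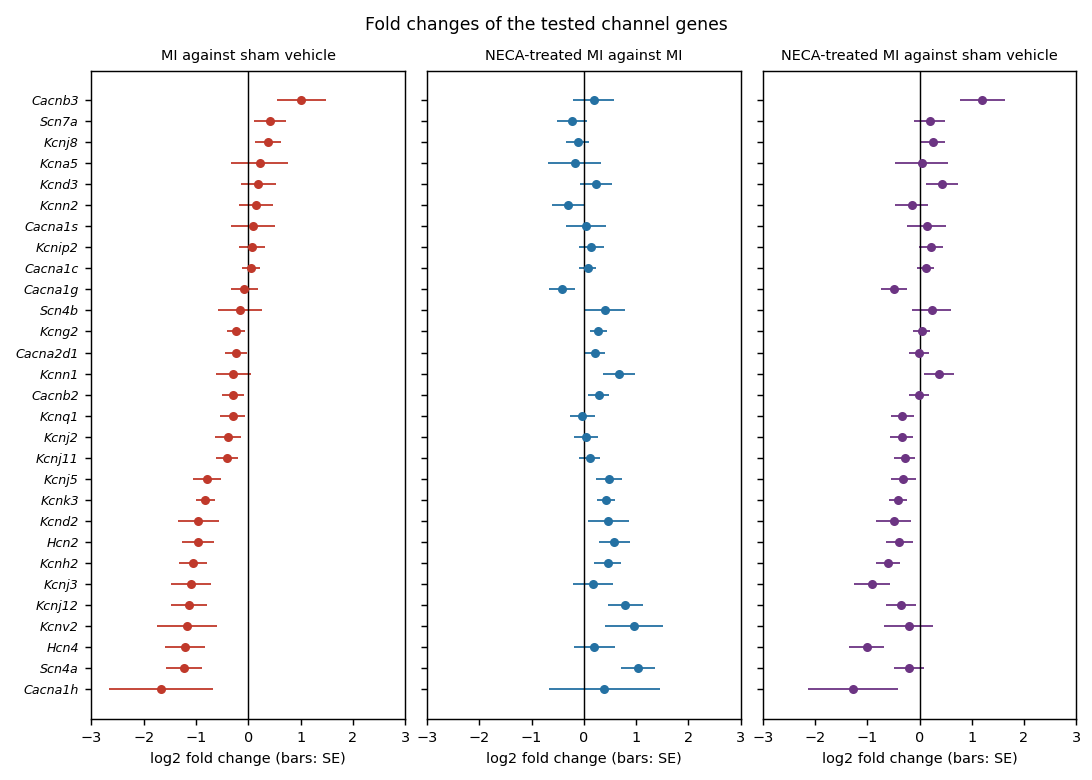
Log2 fold change (x axis) of 29 tested channel genes (y axis, ordered by the first panel) in the 3 comparisons, with bars for the standard error. Most points lie below 0 in the first panel and above 0 in the second. None passed after adjustment, and the panels share mice.

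Summed over all 138 genes, channel transcripts made 2499.6, 2318 and 2324 CPM in sham vehicle mice 1 to 3, 2063, 2015 and 1384 CPM in MI mice 1 to 3, and 2138, 2072, 2155 and 2331 CPM in NECA-treated mice 1 to 4. In these libraries all 3 MI mice were below every sham vehicle and every NECA-treated mouse, and MI mouse 3 was the lowest. The order of MI mice 2 and 3 was the reverse in their 1st libraries, with 1353 and 1754 CPM of library totals. MI mouse 3 also had the lowest summed ventricular markers of the 10 mice and the highest summed fibroblast markers, and the part of these in the channel levels was not tested.

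Scn4a (ENSMUSG00000001027), the pore of the skeletal muscle sodium channel, was 35.7, 42.7 and 28.2 CPM in sham vehicle mice, 22.9, 16.4 and 5.55 CPM in MI mice, and 31.5, 22.4, 39.2 and 30.1 CPM in NECA-treated mice. Every MI mouse was below every sham vehicle mouse, and 1 NECA-treated mouse was just below the highest MI mouse. Log2 fold changes were -1.24 ± 0.34 (SE, edgeR adjusted p = 0.234) in MI against sham vehicle and 1.03 ± 0.33 (adjusted p = 0.793) in NECA-treated MI against MI, the second being 0.62 without MI mouse 3. The values were -1.29 and 1.09 without MI mouse 2, and -1.23 and 1.04 without NECA-treated mouse 4, the mice with skeletal muscle transcripts. Summed over 8 skeletal muscle markers, of which Ckm and Acta1 are also expressed in heart, the level was 1941 to 2786 CPM in sham vehicle, 1586 to 2262 CPM in MI and 1907 to 2926 CPM in NECA-treated mice, and no marker was at 0 in all mice. Scn7a, a sodium-sensing channel homologue, was 8.69 to 24.6 CPM in sham vehicle, 19.7 to 31.4 CPM in MI and 16.2 to 24.7 CPM in NECA-treated mice, with overlap throughout.

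Scn4b, a beta subunit gene whose product modifies gating of the sodium pore, ranged from 23.9 to 33.04 CPM in the sham vehicle group and was 32.5, 35.1 and 6.47 CPM in MI mice and 26.4 to 42.5 CPM in NECA-treated mice. The groups overlapped, and MI mouse 3 was the lowest of all 10 mice.

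**Figure D3:**
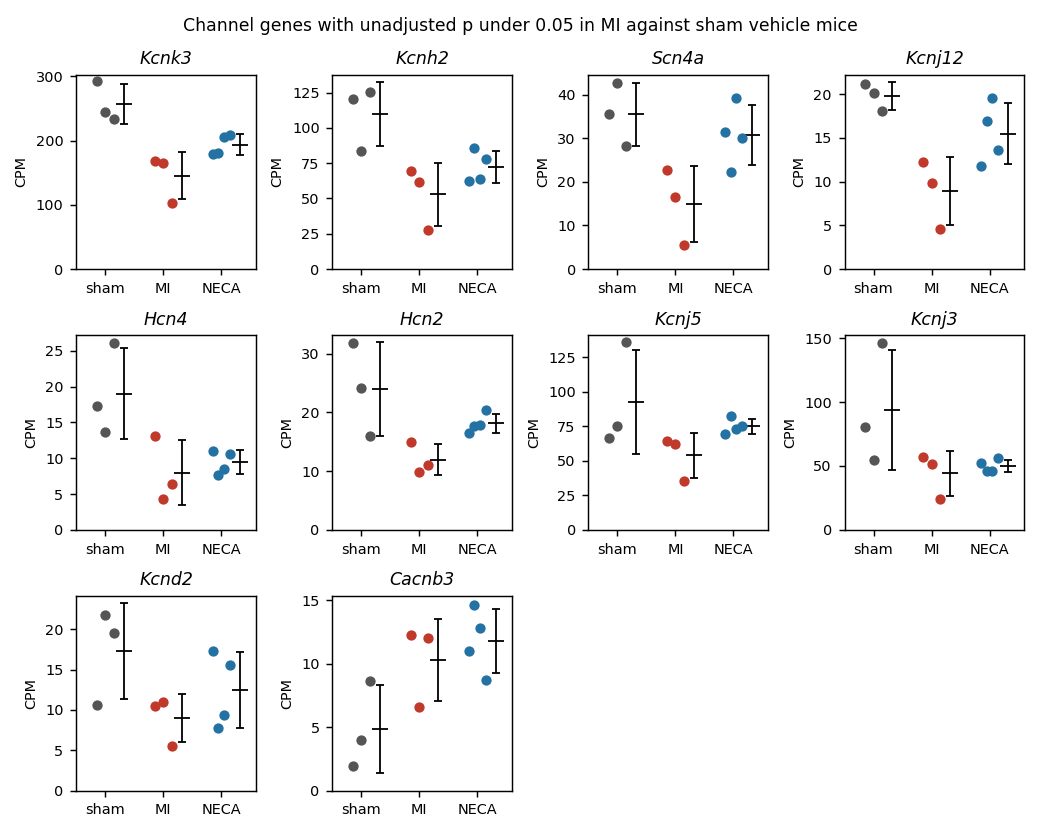
CPM (y axes, each from 0) of 10 channel genes with an unadjusted p under 0.05 in MI against sham vehicle mice, ordered by that p. Points are mice, and bars beside them show mean ± SD (n = 3, 3 and 4). The 3 MI points of Kcnk3 lie between 103 and 168 CPM, below all sham vehicle and NECA-treated points.

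For the pore of the L-type calcium channel the 3 groups overlapped. Cacna1c (ENSMUSG00000051331) was 295, 266 and 236 CPM in sham vehicle mice, 293, 313 and 217 CPM in MI mice and 273, 271, 289 and 318 CPM in NECA-treated mice, with log2 fold changes of 0.05 ± 0.17 and 0.07 ± 0.16 for the first and second comparison. Its partners Cacna2d1, the alpha2delta subunit, and Cacnb2, the beta subunit, overlapped between groups. Cacna2d1 was 107 to 162 CPM in sham vehicle, 88.8 to 136 CPM in MI and 97.9 to 165 CPM in NECA-treated mice, and Cacnb2 54.1 to 69.4, 36.1 to 64.7 and 45.5 to 69.8 CPM.

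Cacnb3 (ENSMUSG00000003352), a beta subunit gene also expressed outside heart muscle, was the 1 channel gene higher at an unadjusted p under 0.05 in both comparisons with sham vehicle mice. It was 1.93, 4.03 and 8.68 CPM in sham vehicle mice, 12.3, 6.58 and 12.02 CPM in MI mice and 11.03, 14.7, 12.8 and 8.73 CPM in NECA-treated mice. All NECA-treated mice were above all sham vehicle mice, 8.73 against 8.68 CPM at the nearest, and the MI mice overlapped. The log2 fold change was 1.02 ± 0.47 in MI (adjusted p = 0.404) and 1.20 ± 0.43 in NECA-treated MI against sham vehicle (adjusted p = 0.796). With sham vehicle mouse 3 and MI mouse 3 both left out, an alternative chosen after seeing the data, the second was 1.91 and passed (adjusted p = 0.0382). In that comparison 241 of all 9560 genes tested passed. Without sham vehicle mouse 3 alone the 2 fold changes were 1.73 and 1.92, and neither passed. The levels in sham vehicle mice stood on 2, 5 and 12 counts.

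Among T-type calcium channel genes, Cacna1g was 24.98 to 37.6 CPM in sham vehicle, 27.2 to 30.7 CPM in MI and 15.4 to 28.1 CPM in NECA-treated mice. Cacna1h was 14.5, 5.64 and 91.8 CPM in the sham vehicle group, between 4.62 and 19.3 CPM in MI and 14.5 to 17.3 CPM in NECA-treated mice. Sham vehicle mouse 3 was the highest for both, and for Cacna1h it alone set the group's mean of 37.3 ± 47.4 CPM (SD, n = 3). Cacna1s, the pore of the skeletal muscle calcium channel, overlapped between the groups at 6.47 to 20.95 CPM. Cacna1d, the L-type channel of atrium and sinus node, was below the filter, with 12 of its 28 counts in sham vehicle mouse 3.

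Both tested pacemaker channel genes were lower in MI than in sham vehicle mice. Hcn4 (ENSMUSG00000032338), the main channel of the sinus node, was 17.4, 13.7 and 26.0 CPM in sham vehicle mice, 13.2, 4.38 and 6.47 CPM in MI mice and 11.03, 7.71, 8.53 and 10.7 CPM in NECA-treated mice. Every MI and every NECA-treated mouse was below every sham vehicle mouse, with 13.2 against 13.7 CPM at the nearest. Log2 fold changes against sham vehicle were -1.21 ± 0.38 for MI (adjusted p = 0.247) and -1.01 ± 0.34 for NECA-treated MI (adjusted p = 0.757). Without sham vehicle mouse 3, which held atrial transcripts, they were -0.91 and -0.70.

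Hcn2 (ENSMUSG00000020331), the pacemaker channel of ventricle and conduction tissue, was 31.9, 24.2 and 15.9 CPM in sham vehicle mice, 14.9, 9.86 and 11.1 CPM in MI mice and 16.5, 17.7, 17.9 and 20.4 CPM in NECA-treated mice. The MI mice lay below both other groups, and the NECA-treated mice within the range of the sham vehicle mice. Its log2 fold changes were -0.96 ± 0.30 in MI against sham vehicle (adjusted p = 0.247) and 0.58 ± 0.30 in NECA-treated MI against MI. Here sham vehicle mouse 3 was the lowest of its group, unlike for Hcn4.

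Of the 9 tested voltage-gated potassium pores, 7 had a log2 fold change below 0 in MI against sham vehicle mice (class median -0.40). Over all tested genes 50.9% were below 0. Kcnh2, Kcnd2, Kcnq1, Kcng2 and Kcnv2 were among the 7 pores. Kcnh2 (ENSMUSG00000038319), the hERG channel of the rapid delayed rectifier, was 121, 83.8 and 125 CPM in sham vehicle mice, 69.4, 61.4 and 27.7 CPM in MI mice and 62.2, 85.6, 64.0 and 77.6 CPM in NECA-treated mice. All MI mice were below all sham vehicle mice, and 3 of the 4 NECA-treated mice were too. The log2 fold change was -1.06 ± 0.26 in MI against sham vehicle (adjusted p = 0.229), -0.74 without MI mouse 3, and 0.45 ± 0.25 in NECA-treated MI against MI (adjusted p = 0.833), which moved to 0.14 with MI mouse 3 left out and to 0.72 with MI mouse 1 left out.

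Kcnd2 (ENSMUSG00000060882), a pore of the fast transient outward current, was 10.6, 21.8 and 19.5 CPM in sham vehicle mice, 10.5, 10.96 and 5.55 CPM in MI mice and 17.3, 7.71, 9.38 and 15.5 CPM in NECA-treated mice, with overlap of all groups.

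Other genes of the transient outward current overlapped between the groups. Kcnd3, the second pore of that current, was 9.67 to 16.4 CPM in sham vehicle, 12.02 to 17.5 CPM in MI and 10.8 to 22.3 CPM in NECA-treated mice. Kcnip2, its calcium-binding accessory subunit and the 1 tested accessory gene of potassium channels, was 161, 168 and 88.2 CPM in sham vehicle mice, 181, 166 and 92.5 CPM in MI mice and 153 to 173 CPM in NECA-treated mice. The 2 low values belonged to sham vehicle mouse 3 and MI mouse 3, the mice with the lowest summed ventricular markers, and the part of tissue make-up in them was not tested.

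Kcnq1, the pore of the slow delayed rectifier, was 36.9 to 46.3 CPM in sham vehicle, 20.3 to 41.3 CPM in MI and 26.8 to 39.8 CPM in NECA-treated mice. Kcna5, the ultrarapid delayed rectifier, ranged from 4.34 to 26.3 CPM without order among the groups, and its lowest value was that of sham vehicle mouse 3. Kcng2, a subunit that is silent on its own and modifies delayed rectifiers, was 75.2 to 106, 61.0 to 85.5 and 85.1 to 103 CPM. Kcnv2, another modifier subunit, stayed under 20 CPM in every mouse, and its groups overlapped.

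Of the 6 tested inward rectifiers, 5 had a log2 fold change below 0 in MI against sham vehicle mice (class median -0.60). Over all tested genes 50.9% were below 0, with a median of -0.0077. Kcnj12 (ENSMUSG00000042529), a pore of the classical inward rectifier that holds the resting potential, was 21.2, 20.2 and 18.1 CPM in sham vehicle mice, 12.3, 9.86 and 4.62 CPM in MI mice and 11.8, 17.0, 19.6 and 13.6 CPM in NECA-treated mice. MI and sham vehicle mice did not overlap, and the NECA-treated mice spread over the gap between them. Log2 fold changes were -1.13 ± 0.34 in MI against sham vehicle (adjusted p = 0.247) and 0.79 ± 0.34 in NECA-treated MI against MI (adjusted p = 0.793), the second being 0.47 without MI mouse 3. Kcnj2, which forms channels of the same current, was 44.1 to 58.0 CPM in sham vehicle, 23.1 to 50.1 CPM in MI and 32.4 to 48.5 CPM in NECA-treated mice, with overlap of all groups.

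Kcnj3 and Kcnj5, whose products together form the acetylcholine- and adenosine-gated channel of atrium and nodes, depended on sham vehicle mouse 3. Kcnj3 (ENSMUSG00000026824) was 80.1, 54.8 and 146 CPM in sham vehicle mice, 57.1, 51.5 and 24.04 CPM in MI mice and 46.1 to 56.2 CPM in NECA-treated mice. Kcnj5 (ENSMUSG00000032034) was 66.6, 74.95 and 136 CPM in sham vehicle mice, 64.2, 62.5 and 35.1 CPM in MI mice and 69.3 to 82.5 CPM in NECA-treated mice. Without sham vehicle mouse 3 the log2 fold change in MI against sham vehicle was -0.61 in place of -1.09 for Kcnj3 and -0.40 in place of -0.79 for Kcnj5. With MI mouse 3 left out as well they were -0.30 and -0.17.

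**Figure D4:**
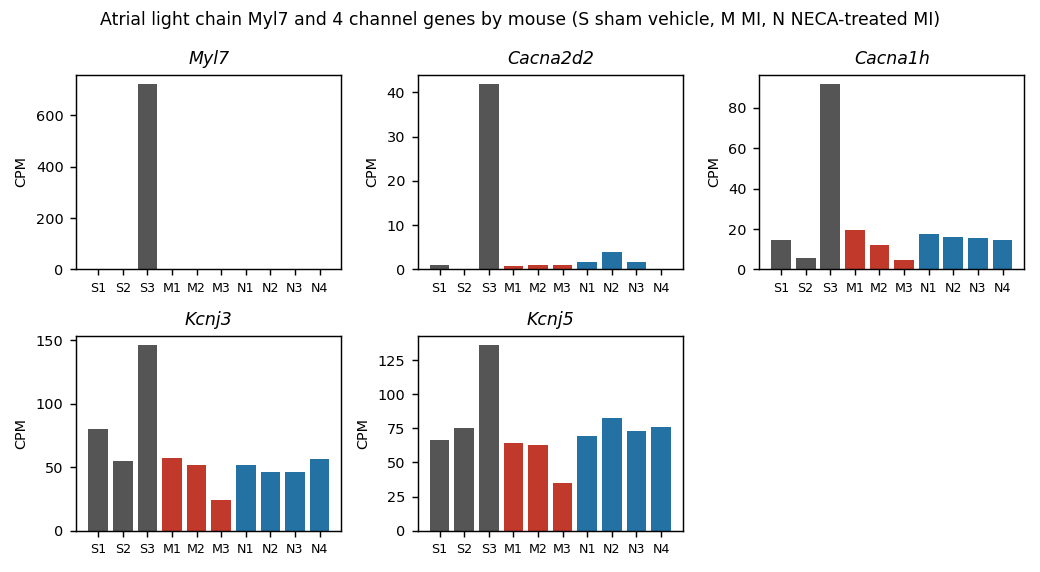
CPM (y axes, each from 0) by mouse of the atrial light chain gene Myl7 and of 4 channel genes, chosen after their values were seen because sham vehicle mouse 3 (S3) was the highest. Cacna2d2 was 41.9 CPM in that mouse and at most 3.86 CPM in any other.

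The pore genes of the ATP-sensitive channel, which opens when cell energy is low, overlapped between the groups. Kcnj11, its pore in heart muscle, was 135 to 174 CPM in sham vehicle, 155, 126 and 69.4 CPM in MI and 115 to 139 CPM in NECA-treated mice, with a log2 fold change of -0.40 ± 0.21 in MI against sham vehicle that moved to -0.13 with MI mouse 3 left out and to -0.66 with MI mouse 1 left out. Kcnj8, its pore in vessels, was 22.4 to 36.7, 30.7 to 44.4 and 26.8 to 39.2 CPM, and MI mouse 3 was the highest. Kcnj15, below the filter, had 20 of its 55 counts in MI mouse 3, and 22.9 CPM of library counts in that mouse's 1st library against 1.37 CPM in that of MI mouse 2.

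Kcnk3 (ENSMUSG00000049265), a two-pore-domain channel that carries a background potassium current sensitive to acid and to low oxygen, had the smallest p of all channel genes in MI against sham vehicle mice. It was 293, 244 and 234 CPM in sham vehicle mice, 168, 166 and 103 CPM in MI mice and 179, 181, 206 and 208 CPM in NECA-treated mice. The 3 groups did not overlap, with MI lowest and NECA-treated mice in between, and the nearest values of these were 168 and 179 CPM. Group means were 257 ± 31.7, 145 ± 37.0 and 194 ± 15.9 CPM (SD, n = 3, 3 and 4).

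The log2 fold change of Kcnk3 was -0.82 ± 0.18 in MI against sham vehicle (adjusted p = 0.114), 0.41 ± 0.17 in NECA-treated MI against MI (adjusted p = 0.793, and 0.21 without MI mouse 3) and -0.41 ± 0.17 in NECA-treated MI against sham vehicle (adjusted p = 0.82). In MI against sham vehicle it ranged from -0.94 to -0.62 over the alternatives, with adjusted p from 0.00388 to 0.555. It passed without sham vehicle mouse 3 (adjusted p = 0.0371) and not without mouse 1 (0.348) or mouse 2 (0.276). With sham vehicle mouse 3 and MI mouse 3 both left out it passed in MI (-0.69, adjusted p = 0.00611) and in NECA-treated MI against sham vehicle mice (-0.48, adjusted p = 0.0165). More genes of all kinds passed in these fits. They were 50 of 9797 in MI against sham vehicle without sham vehicle mouse 3, and 69 of 9560 without both mice, against 7 of 9505 with all mice. In NECA-treated MI against sham vehicle they were 241 of 9560 without both mice, against 1 of 9505. The other detected two-pore-domain genes, such as Kcnk6 with 54 counts and the stretch-activated Kcnk2 with 19 counts over the 10 libraries, were below the filter.

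Of the calcium-activated potassium channels, Kcnn1 (ENSMUSG00000002908) was 11.6 to 16.1 CPM in the sham vehicle group, 13.2, 14.3 and 6.47 CPM in MI mice and 15.8, 19.3, 17.1 and 19.4 CPM in NECA-treated mice. The NECA-treated mice were all above the MI mice, with a log2 fold change of 0.66 ± 0.31 (adjusted p = 0.802) that was 0.38 without MI mouse 3. Kcnn2 was 11.6 to 19.3, 12.02 to 19.7 and 10.2 to 16.2 CPM, with overlap of all groups.

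Among other genes of excitability 0 passed in any of the 3 comparisons. Of 21 regulators and scaffolds of channels, such as the ankyrin genes Ank2 and Ank3, 13 were tested, and 10 were lower in MI than in sham vehicle mice (median log2 fold change -0.26, beside -0.0077 over all tested genes, of which 50.9% were lower). Between NECA-treated MI and MI mice 11 of the 13 were higher (median 0.27), beside 48.6% of all tested genes. Between NECA-treated MI and sham vehicle mice 5 were higher and 8 lower (median -0.04), beside 47.9% and 52.1% of all tested genes. Of 15 transcription factors known for control of channel genes in heart, 10 were tested. Of these, 7 were lower in MI against sham vehicle (median -0.32), beside 50.9% of all tested genes. At an unadjusted p under 0.05, 2 factors were lower, Gata4 among them, beside 5.8% of all tested genes. At that level 0 were higher, beside 6.18%. In NECA-treated MI against MI mice all 10 had a positive fold change (median 0.24), beside 48.6% of all tested genes. Against sham vehicle mice the NECA-treated mice had 6 of these factors higher and 4 lower (median 0.04), and 13 channel genes higher and 20 lower. Of all tested genes 47.9% were higher and 52.1% lower there (median -0.0123), and the difference between the lists was not tested.

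The repeated libraries of MI mice 2 and 3 did not give the same channel levels. In MI mouse 2, 24 of the 33 tested genes were lower in the 1st, deep library than in the 2nd, beside 52.3% of all tested genes. The median log2 ratio was -0.47 (CPM of library totals plus 2), beside -0.03 over all 9505 tested genes. In MI mouse 3 the median was 0.15, beside 0.06. There 12 of the 33 genes were lower in the 1st library, beside 40.5% of all tested genes. For that same mouse 2, the 1st and 2nd libraries held 126 and 294 CPM of Cacna1c and 11.8 and 28.8 CPM of Cacna1g. Hcn2 (9.24 and 9.26 CPM), Kcnj2 (36.1 and 36.0 CPM) and Kcnip2 (159 and 155 CPM) had ratios near 1 there.

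In MI mouse 2 the ratio passed 2-fold in 5 of the 33 genes, beside 6.73% of all tested genes, and in MI mouse 3 in 1, beside 1.58%. With the 2 libraries of a mouse summed, in which the deep library has most of the weight, the median of the channel genes in MI against sham vehicle was -0.53 with 28 of 33 genes below 0, in place of -0.30 and 23. For NECA-treated MI against MI it was 0.38 with 30 of 33 above 0. No channel gene passed in these fits either (smallest adjusted p in MI against sham vehicle 0.0556, for Scn4a). Of all 9688 genes tested there, 15 passed in MI against sham vehicle and 1 in NECA-treated MI against MI. Shares of all tested genes below or above 0 are not given for these fits. The deep libraries exist for MI mice only, so library and group cannot be told apart in these values.

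**Figure D5:**
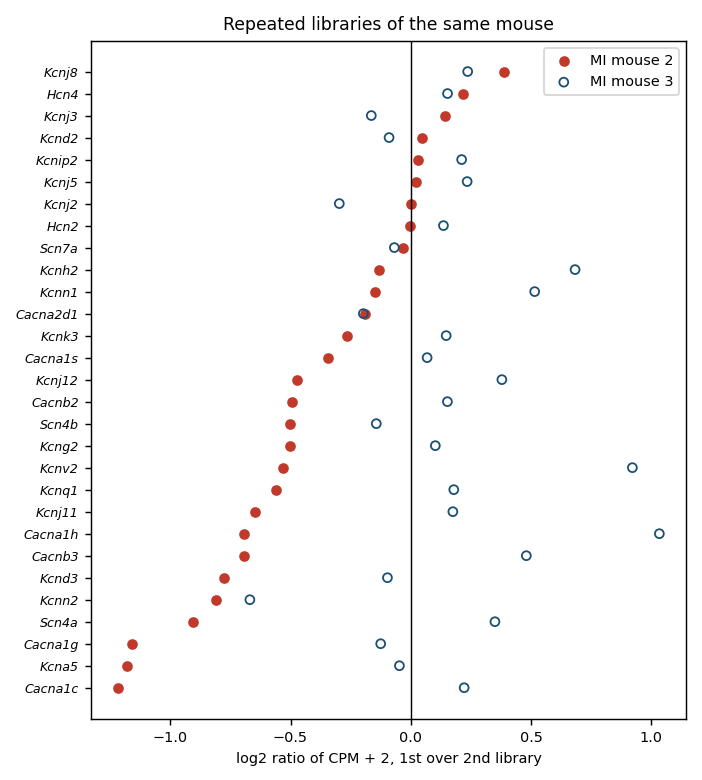
Log2 ratio of the 1st over the 2nd library (x axis, CPM of library totals plus 2) for 29 tested channel genes (y axis) in MI mouse 2 (filled) and MI mouse 3 (open). Points of MI mouse 2 reach -1.22 for Cacna1c, where MI mouse 3 has 0.22.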

How the data were processed

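RNA of myocardial tissue was made into 3′ end libraries with a modified CEL-Seq2 protocol, without pooling, per the labels' protocols. Reads were processed with STAR and RSEM on GRCm39 and FastQC 0.11.9, per the submitters' processing notes. For the annotation release, strand and molecular identifiers nothing was given in the sources used. The authors deposited expected counts per gene, as whole numbers, and log2(TPM + 1), which divides by gene length although 3′ reads do not grow with it. Of 57054 rows, 56647 had a value in every library. Symbols and gene types came from GENCODE M21 by Ensembl identifier (52029 rows matched), an annotation of another build, so no coordinates are given. Of the 33 tested genes, 11 share exon sequence with an antisense gene there. As strand was not given, it is not known whether their reads were told apart. Kcnk3 (2303 counts over 10 libraries) overlaps Gm9899 (246) and Kcnq1 (408) overlaps Kcnq1ot1 (53).

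The mouse was the replicate. MI mice 2 and 3 entered with their 2nd library, since the 1st libraries exist in 1 group only and differ in depth and annotation, and the summed or 1st libraries were alternatives. The test was that of edgeR 4.0.16 under R 4.3.3 on counts (filterByExpr, TMM, robust quasi-likelihood test, two-sided, 1 fit of 10 mice, Benjamini-Hochberg over 9505 genes), after the code was tested on simulated data. DESeq2 1.42.0 and limma 3.58.1 were alternatives, with other scalings and filters, a fit of 2 groups, a replicate block and leaving out each mouse. A p-value sets a difference between groups against the spread between these mice only. In edgeR that spread was estimated over all 3 groups, with information shared over all tested genes. Genes named are the 6 of smallest p per comparison, the 2 of highest mean CPM per class and a list of known cardiac channels, and those outside it were chosen after their values were seen. Some genes are counted but not reported by name here. The genes and lists were chosen with earlier results of these data known. Floors of 3 counts cover counting error only.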

Additional observations from a re-analysis of the deposited data

Results flagged for a closer look

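Transcripts of 4 channel genes appeared above the limit of 3 counts in a 1st library of MI mouse 2 or 3 while none of the 10 libraries of the comparisons held a count, so they were seen in data outside the comparisons. They were Cacng4 (2 and 4 counts in the 1st libraries of MI mice 2 and 3), Kcnj10 (1 and 6), Kcnk1 (4 and 3) and Kcns1 (4 and 7), at most 0.258 CPM of library counts. No 1st library exists for the other groups, so no comparison was possible. None of the 26 named and tested genes had a NECA-treated mouse far from the other 3 by Dixon's test, where chance flags about 1 group in 20.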

How the results depend on the processing

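The count of channel genes past the threshold in MI against sham vehicle mice was 0 with every alternative other than those named here. It was 5 with every gene of at least 1 count kept (Kcnh2, Kcnj3, Kcnj5, Kcnk3 and Scn4a among 20308 genes, of which 191 passed), and 0 to 1 over leaving out each mouse (Kcnk3 without sham vehicle mouse 3). With sham vehicle mouse 3 and MI mouse 3 both left out it was 2. In NECA-treated MI against sham vehicle mice it was also 2 without both (Kcnk3 and Cacnb3), 1 (Kcnj3) with the looser filter and 0 without any 1 mouse. In NECA-treated MI against MI mice it was 0 throughout. Of all tested genes, 50 of 9797 passed in MI against sham vehicle without sham vehicle mouse 3, and 69 of 9560 without both mice. In NECA-treated MI against sham vehicle, 241 of 9560 passed without both mice and 43 of 20308 with the looser filter. The median log2 fold change of the channel genes ranged from -0.44 to -0.10, from 0.09 to 0.34 and from -0.17 to 0.0511 over leaving out each mouse in the 3 comparisons in the order of the text. With every gene of at least 1 count kept the medians were -0.12, 0.12 and -0.12. With limma on log2(TPM + 1) the sign turned for Cacna1g in NECA-treated MI against sham vehicle (0.59), and the cause was not tested. It was not the only gene to change sign. Over leaving out each mouse, Cacna1h ran from -2.24 to 0.30 in MI against sham vehicle. In NECA-treated MI against MI, Hcn4 ran from -0.07 to 0.77 and Kcnj11 from -0.16 to 0.38. Other named genes changed sign too, while Kcnk3, Kcnh2, Scn4a and Kcnj12 kept theirs in each comparison. With a replicate block over mice 1 to 3, 0 channel genes passed and the medians were -0.32, 0.20 and -0.13. Deviations of same-numbered mice from their group means had correlations from -0.228 to 0.194. With so few mice per group these cannot settle whether the numbers pair the mice. Of the 105 genes not tested, 71 had a count in the 10 libraries, 20 only in a 1st library and 14 in none.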
